A study of Bos taurus with 3 samples.

Results

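PRRX1, PRRX2, TWIST1, TWIST2, SNAI1, SNAI2, ZEB1, ZEB2, TCF4 and TCF21 encode transcription factors of mesenchymal cells, and these 10 genes were taken by their symbols from a table of 31903 genes. All 10 had a row of their own. RNA was sequenced from BFF116 cells, bovine fetal fibroblasts in culture whose nuclei are moved into egg cells in cloning, and deprived of serum for 48 h before harvest. The series had 1 group of 3 biological replicates, each library made from 70000 cells, and cells kept in serum or other cell types were not analysed here. The labels do not state the sex or age of the fetus, or whether separate cultures or animals gave the replicates, and part of the spread between libraries may be technical.

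Factors of these families hold cells in a mesenchymal state. SNAI and ZEB proteins are zinc finger repressors that bind E-box sequences and shut off epithelial genes such as the cadherin gene CDH1, which lets cells leave an epithelium during development (epithelial to mesenchymal transition). TWIST and TCF21 proteins are basic helix-loop-helix (bHLH) factors that act as dimers with E proteins, and TCF4 is itself 1 of the E proteins. PRRX proteins carry a homeodomain and mark limb and craniofacial mesenchyme and many fibroblasts in the mouse.

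Replicates 1 to 3 gave 8608350, 4842331 and 7122651 gene counts. Levels are given as CPM, counts per 1000000 reads assigned to genes after scaling of library sizes, and means are ± SD (n = 3). A gene is called measured here when each of the 3 libraries gave it at least 1 CPM. Transcript lengths were not available, so a gene's CPM also carries its length, and an order of genes by CPM is an order of reads and not of transcripts. Bulk RNA does not tell fewer expressing cells apart from less RNA per cell. Fibroblast markers were present, with 12 of 12 measured and a summed level of 105145 to 116416 CPM. Over all listed genes the measured share was 34.6%, and that of the endothelial markers was 37.5%. Of the markers of other cell types, 2 of 9 were measured for leukocytes, 3 of 8 for endothelium, 3 of 13 for neural and neural crest cells, 1 of 5 for melanocytes, 1 of 6 for epicardium and podocytes and 0 of 8 for skeletal muscle. Their summed levels were 4.23 to 11.2 CPM for leukocytes, 9.47 to 27.3 CPM for endothelium, 14.5 to 23.3 CPM for neural and neural crest cells, 1.97 to 3.33 CPM for melanocytes, 10.1 to 26.2 CPM for epicardium and podocytes and 0.831 to 3.02 CPM for skeletal muscle. The measured ones were CD68 (3.42 ± 1.45 CPM) and LYZ (2.77 ± 0.676) of leukocytes, ERG (9.67 ± 7.62), TEK (5.93 ± 2.54) and PECAM1 (2.65 ± 1.65) of endothelium, STMN2 (10.6 ± 4.61), TFAP2A (4.95 ± 4.46) and TUBB3 (2.91 ± 1.89) of neural and neural crest cells, PMEL (2.39 ± 0.521) of melanocytes and MSLN (17.2 ± 7.82) of epicardium. ERG, MSLN, STMN2 and CD68 were highest in replicate 3, at 18.3, 24.6, 15.1 and 4.64 CPM. TEK, PECAM1, LYZ, TFAP2A and PMEL were highest in replicate 1, at 7.72, 4.51, 3.33, 10.1 and 2.97 CPM. TUBB3 was highest in replicate 2, at 4.84 CPM. The part of such cells in the members' levels was not tested. Some markers that were not measured still had reads, such as FCER1G (26, 1 and 14), PAX3 (10, 1 and 14), CSF1R (1, 1 and 10) and MYF5 (4, 8 and 8). Markers at 0 throughout were 4 of 9 for leukocytes, 4 of 8 for endothelium and 7 of 13 for neural and neural crest cells. They were 3 of 5 for melanocytes, 3 of 6 for epicardium and podocytes and 4 of 8 for skeletal muscle. The pan-leukocyte gene PTPRC, the endothelial receptor genes KDR and TIE1, the neural crest genes SOX10 and FOXD3, the epicardial and podocyte gene WT1 and the muscle genes MYOD1 and PAX7 had 0 reads in every library.

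Of the 10 genes 8 were measured, as were 34.6% of all listed genes. SNAI1 and TCF21 were the 2 that were not. The median of the 10 mean levels was 65.2 CPM. The median was 0.134 CPM over all listed genes, 4.96 CPM over the 18039 genes with a read and 20.5 CPM over the 11047 measured genes. Together the 10 genes held 0.128, 0.144 and 0.165% of gene counts in replicates 1 to 3, and PRRX1 alone held 53.1, 52.8 and 57.0% of those reads. The set was uneven, with more reads in 1 homeobox gene than in the other members together.

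**Figure D1:**
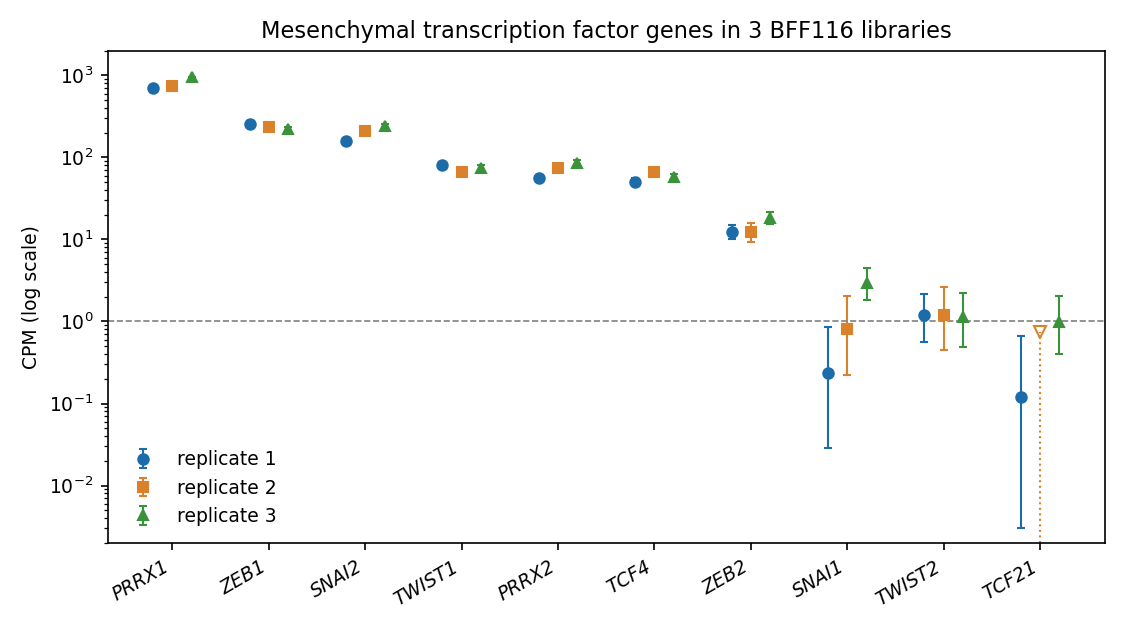
CPM on a log scale for the 10 genes, ordered by mean CPM, with 1 point for each of the 3 libraries and bars for exact 95% binomial intervals of counting error. The open triangle is the upper bound for TCF21 in replicate 2, which had 0 reads, and the dashed line is 1 CPM. PRRX1 lies at 698 to 944 CPM in all 3 libraries, and SNAI1, TWIST2 and TCF21 lie near or below the line.

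PRRX1, the paired-related homeobox gene that marks limb mesenchyme in the mouse, had 698, 744 and 944 CPM in replicates 1 to 3, a mean of 795 ± 131. Replicate 3 was the high library, and its 95% interval of 922 to 967 CPM did not overlap those of replicates 1 and 2. By mean CPM the gene was number 149 of all listed genes. PRRX2, its paralog, stood at 56.3, 74.0 and 86.3 CPM, a mean of 72.2 ± 15.1, and replicate 1 was the low library. PRRX1 had more reads than PRRX2 in all 3 libraries, and the log2 ratio was 3.47 ± 0.15. Over all libraries PRRX1 had 11.2 times the reads of PRRX2 (exact 95% interval 10.6 to 11.8), so the order would turn per unit of length only if the counted sequence of PRRX1 were longer by more than that factor. The ratio was 12.4, 10.1 and 10.9 in replicates 1 to 3, and the interval covers only counting error of the pooled reads.

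Length bears on the share of PRRX reads that came from PRRX2 alike in every library, so the shares can be set side by side. The share was 7.47% in replicate 1 (exact 95% interval 6.83 to 8.14), 9.04% in replicate 2 (8.18 to 9.97) and 8.37% in replicate 3 (7.74 to 9.03). The intervals of replicates 1 and 2 did not overlap and those of the other pairs did. Both genes were lowest in replicate 1 and highest in replicate 3. PRRX2 overlaps LOC107132964 in the RefSeq gene table of assembly ARS-UCD2.0, a gene with no row in the counts.

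SNAI2, the gene of the repressor SLUG, had 160.5, 211 and 245 CPM in replicates 1 to 3, a mean of 205 ± 42.3. Replicate 1 was low, and the 95% intervals of the 3 libraries, 152 to 169, 199 to 224 and 233 to 256 CPM, did not overlap. SNAI1, the gene of the repressor SNAIL, had 2, 4 and 21 reads in replicates 1 to 3, or 0.238, 0.806 and 2.95 CPM. Most of its reads were in replicate 3, which was the only library above 1 CPM. The mean of 1.33 ± 1.43 CPM was 0.522 CPM without replicate 3, so it rests on that library. SNAI3, the remaining paralog, was at 0 reads throughout. By a limit of 3 reads, a count of 0 still allows 0.605 CPM in replicate 2, the shallowest library. The exact 95% interval used for the members reaches 0.743 CPM for a count of 0 there.

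SNAI2 had more reads than SNAI1 in every library, and the log2 ratio was 7.76 ± 1.37. The ratio of reads was 675.5 in replicate 1, 262 in replicate 2 and 82.8 in replicate 3. Over all libraries it was 153 (exact 95% interval 105 to 233), and it was 399.8 without replicate 3. SNAI1 held 0.148% of SNAI reads in replicate 1 (0.0179 to 0.533), 0.380% in replicate 2 (0.104 to 0.971) and 1.19% in replicate 3 (0.740 to 1.82). The intervals of replicates 1 and 3 did not overlap. Reads outside annotated genes were 62.0% of counted reads in replicate 3, against 59.2 and 58.9% in replicates 1 and 2, and the part of that difference in the SNAI1 counts was not tested.

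ZEB1, a zinc finger and homeodomain repressor of CDH1, had 253, 233 and 225 CPM, a mean of 237 ± 14.2. Its coefficient of variation of 6.02% was the lowest of the 7 members with 10 or more reads in every library. ZEB2, its paralog and a binding partner of SMAD proteins, had 12.4, 12.3 and 18.4 CPM, a mean of 14.4 ± 3.53, and replicate 3 was high. ZEB1 exceeded ZEB2 in every library by a log2 ratio of reads of 4.06 ± 0.40, or 16.5 times the reads overall (exact 95% interval 14.7 to 18.6). The ratio of reads was 20.5, 18.9 and 12.2 in replicates 1 to 3. All of these lie outside that interval, which covers counting error of the pooled reads and not the spread between libraries. ZEB2 held 4.66% of ZEB reads in replicate 1 (3.82 to 5.62), 5.02% in replicate 2 (3.86 to 6.40) and 7.56% in replicate 3 (6.36 to 8.91), with no overlap between replicates 1 and 3. In the same RefSeq table ZEB1 overlaps 3 long noncoding RNA genes with a row. LOC104973755 had 30, 14 and 19 reads, LOC104973760 had 53, 33 and 94 reads and LOC101903056 had 11, 1 and 16 reads. ZEB2 overlaps LOC613677, which had 44, 9 and 9 reads. Because the strand setting of the counting is not known, reads of overlapping genes cannot be told apart.

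TWIST1, a bHLH factor of mesoderm and cranial mesenchyme, had 81.8, 66.1 and 74.9 CPM in replicates 1 to 3, a mean of 74.3 ± 7.89. The highest and the lowest library differed 1.24-fold. TWIST2 had 10, 6 and 8 reads, or 1.19, 1.21 and 1.13 CPM, with wide 95% intervals of 0.570 to 2.184, 0.444 to 2.63 and 0.486 to 2.22 CPM. It stood just above 1 CPM in all libraries, and its intervals reached below that level in each. TWIST1 had 64.5 times the reads of TWIST2 (exact 95% interval 43.2 to 101.04), with a log2 ratio of 5.89 ± 0.20. TWIST2 held 1.43, 1.80 and 1.48% of TWIST reads, and all intervals overlapped. The bHLH domains of the 2 proteins are closely alike, and reads with several alignments were not counted, so reads of this shared stretch may be missing from either gene.

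TCF4, an E protein gene, shares its name with an older name of the TCF7L2 protein and had 50.7, 66.5 and 57.7 CPM, a mean of 58.3 ± 7.91. TCF7L2, a mediator of WNT signals, had its own row at 82.5 ± 19.1 CPM. In the RefSeq table TCF7L2 is also given as a synonym of TCF4, so the rows were kept apart by symbol. TCF4 also overlaps a gene listed as TRNAE-UUC, a transfer RNA. A row with this symbol had 87, 12 and 41 reads, but it was matched by symbol alone, so its reads cannot be placed at this locus. TCF12, another E protein gene, stood at 611 ± 11.7 CPM and TCF3 at 8.47 ± 3.69 CPM. In each library TCF4 had fewer reads than TCF12 (log2 ratio -3.40 ± 0.19) and more than TCF3 (log2 ratio 2.87 ± 0.60).

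TCF4 held 7.74% of E protein reads in replicate 1 (7.05 to 8.47), 9.72% in replicate 2 (8.74 to 10.8) and 8.32% in replicate 3 (7.57 to 9.13). Only the intervals of replicates 1 and 2 did not overlap. The share of TCF3 was 0.689% in replicate 1 (0.488 to 0.944), 1.33% in replicate 2 (0.968 to 1.77) and 1.71% in replicate 3 (1.36 to 2.11), and that of replicate 1 overlapped neither of the others. The ratio of TCF4 to TCF3 reads was accordingly 11.2, 7.33 and 4.88 in replicates 1 to 3.

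TCF21, a bHLH factor of epicardial, renal and lung mesenchyme in the mouse, had 1, 0 and 7 reads. It was under 1 CPM in every library, with an upper 95% bound of 0.662, 0.743 and 2.03 CPM. Of its 8 reads 7 were in replicate 3, and the mean of 0.368 ± 0.538 CPM was 0.0595 without that library. No gene overlaps TCF21, TWIST1, TWIST2, SNAI1, SNAI2 or PRRX1 in the RefSeq table.

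**Figure D2:**
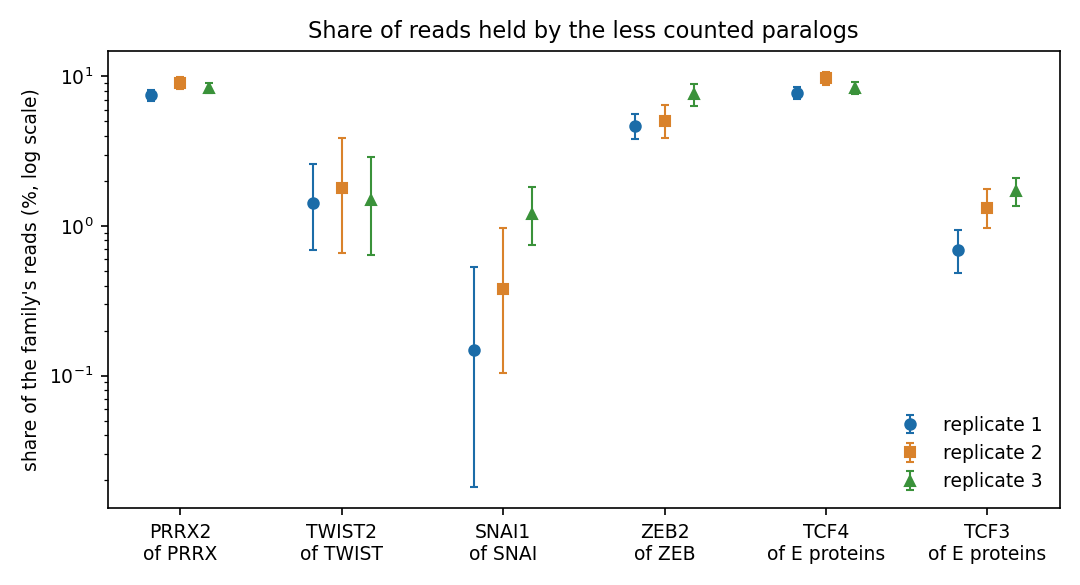
Share of a family's reads held by its less counted members in each of the 3 libraries, on a log scale, with exact 95% binomial intervals of counting error. TWIST2 stays at 1.43 to 1.80% with overlapping intervals, whereas SNAI1 spans 0.148 to 1.19% and TCF3 spans 0.689 to 1.71%.

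By mean CPM the members ran PRRX1, ZEB1, SNAI2, TWIST1, PRRX2, TCF4, ZEB2, SNAI1, TWIST2 and TCF21. In 3 neighbouring pairs the order was not the same in all libraries. ZEB1 was above SNAI2 in 2 of 3 libraries (log2 ratio of reads 0.23 ± 0.39), TWIST1 was above PRRX2 in 1 of 3 (0.06 ± 0.42), and SNAI1 was above TWIST2 in 1 of 3 (-0.42 ± 1.71). PRRX2 was above TCF4 in every library, but by a log2 ratio of only 0.29 ± 0.25. The other neighbours kept their order in 3 of 3 libraries, with mean log2 ratios of 1.45 to 3.92. Among them the spread was widest for TWIST2 over TCF21 (2.23 ± 1.83), with 8 against 7 reads in replicate 3. With 3 libraries an exact sign-flip permutation test cannot give a p below 0.25, so these orders are described and not tested.

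Whether the members differed between libraries beyond counting error was asked for the 7 with 10 or more reads in every library. For 6 of the 7 the 95% intervals of the highest and the lowest library did not overlap, where 63.3% of all 10434 genes at this depth met the same criterion. The exception was ZEB2, whose intervals were 15.4 to 21.9 CPM in replicate 3 and 9.40 to 15.8 CPM in replicate 2, its lowest library and the shallowest. The replicate 1 interval of ZEB2, 10.1 to 15.0 CPM, did not overlap that of replicate 3. With replicate 2 left out ZEB2 therefore met the criterion. Without replicate 1 the count was 2, namely PRRX1 and SNAI2. None of the 7 varied more than the trend of genes of like level by edgeR's dispersion trend, with Benjamini-Hochberg adjusted p of 1.0 for each, and the count was also 0 at an unadjusted p under 0.05 and with DESeq2's dispersion trend. That test called 2 of the 10434 genes, or 0.0192%, and 5.24% of them had an unadjusted p under 0.05. With so few genes called, 0 calls among the 7 members cannot show that their levels were stable.

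The coefficient of variation of the 7 members had a median of 16.5%, beside 22.4% over all genes with 10 or more reads in every library, which also include genes of lower level. It was 24.6% for ZEB2, 20.9% for PRRX2, 20.6% for SNAI2, 16.5% for PRRX1, 13.6% for TCF4 and 10.6% for TWIST1. The highest library was replicate 3 for PRRX1, PRRX2, SNAI2 and ZEB2, replicate 1 for TWIST1 and ZEB1, and replicate 2 for TCF4. Replicate 3 was thus highest for 4 of 7 members, and for 36.3% of all genes at this depth. The members did not all move together. ZEB1 was higher in replicate 1 than in replicate 3 and its paralog ZEB2 was lower, in both cases with intervals that did not overlap. For ZEB1 the intervals of replicates 2 and 3, 219 to 246 and 214 to 237 CPM, did overlap, so its lowest library is not settled.

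**Figure D3:**
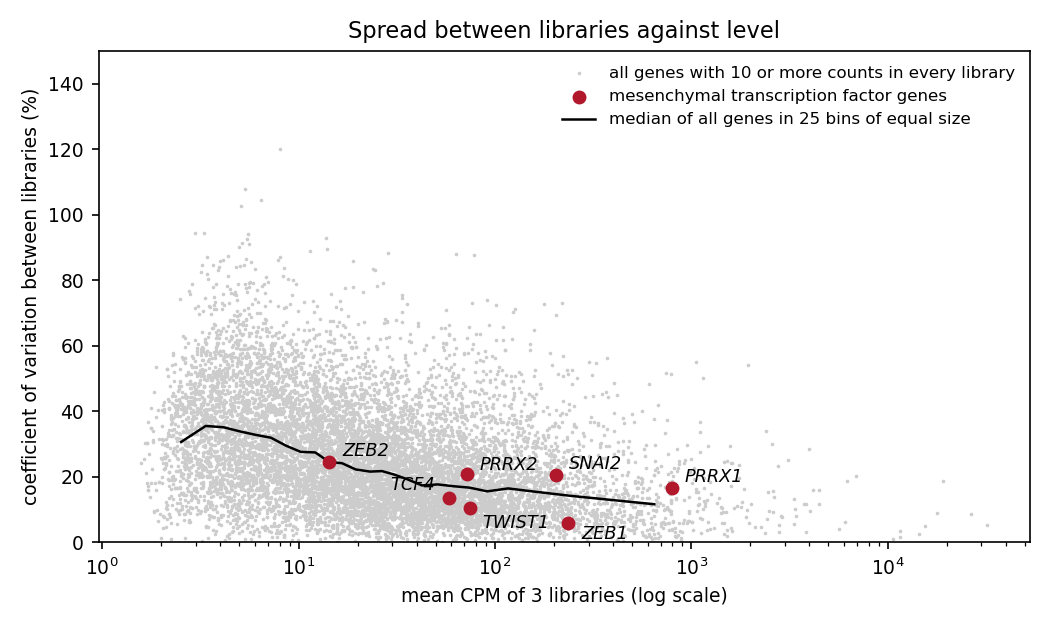
Coefficient of variation between the 3 libraries in percent against mean CPM on a log scale, for all 10434 genes with 10 or more reads in every library (grey) and for the 7 members that reached this depth (red). The black line is the median of all genes in bins of equal size; the members lie between 6.02% for ZEB1 and 24.6% for ZEB2, within the range of genes of like level.

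Genes whose proteins pair with or block these factors were measured in part. All 5 of the E protein and ID genes with a row were measured, beside 34.6% of all listed genes. Beside TCF12 and TCF3 these were the genes of the ID proteins, which bind E proteins and keep them from DNA. ID2 had 128, 155 and 150.3 CPM, ID3 had 16.3, 33.9 and 50.4 CPM and ID1 had 1.07, 3.43 and 3.80 CPM. These 5 genes were all lowest in replicate 1, though TCF12 ranged only over 600, 609 and 623 CPM. Other TWIST-related bHLH genes had 0 of 8 members measured, with HAND2 at 0, 9 and 6 reads, TCF24 at 14, 1 and 2 reads and the other 6, among them HAND1 and SCX, at 0. Of the SNAI-related genes SCRT1, like SNAI3, had 0 reads.

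Of 26 other homeobox, T-box, forkhead and zinc finger genes of mesenchyme with a row 14 were measured, beside 34.6% of all listed genes. The median over the 26 was 2.30 CPM. The highest were GLI3, an effector of hedgehog signals, at 99.1 ± 8.74 CPM, TBX18 at 75.9 ± 16.5 CPM, MEOX2 at 68.4 ± 21.5 CPM and TBX15 at 29.3 ± 5.83 CPM. TBX18 and MEOX2 were highest in replicate 1, at 93.1 and 91.3 CPM, whereas PRRX1, PRRX2 and SNAI2 were lowest there. The list was mixed, since TBX15 was highest in replicate 3, at 35.9 CPM. Of its 13 genes with 10 or more reads in every library 7 were highest in replicate 3, beside 36.3% of all genes at this depth. All 4 TCF and LEF genes, the DNA-binding partners of beta-catenin, were measured, with TCF7L1 at 40.8 ± 3.32, TCF7 at 25.3 ± 8.93 and LEF1 at 4.404 ± 2.36 CPM beside TCF7L2. Among the 10 members and 57 related transcription factor genes with a row, PRRX1 was number 1 by mean CPM, ZEB1 number 3 and SNAI2 number 4.

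The related transcription factor gene nearest in level to each member over the 3 libraries was found by the root mean square difference of log2(CPM + 0.5). For PRRX2 it was TCF7L2 (0.19), for TWIST1 TBX18 (0.23), for TWIST2 FOXD2 (0.30), for PRRX1 TCF12 (0.40) and for ZEB2 MSX2 (0.50). TCF4 was nearest to MEOX2 (0.51), and SNAI2 and ZEB1 were both nearest to ID2 (0.51 and 0.74). Likeness over 3 libraries mostly reflects a like number of reads.

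Corepressors that SNAI and ZEB proteins recruit were widely present. Of 17 with a row 16 were measured, beside 34.6% of all listed genes, with a median of 53.3 CPM. CHD4, a nucleosome remodeller, stood at 235 ± 45.9 CPM, the histone demethylase KDM1A at 213 ± 3.38, the histone deacetylase HDAC1 at 141 ± 9.39 and the histone chaperone RBBP4 at 119 ± 20.5 CPM. The exception was the corepressor CTBP1, with 6, 17 and 5 reads, while its paralog CTBP2 had 65.2, 50.2 and 50.8 CPM. These proteins serve many other factors as well.

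Kinases, ubiquitin ligases and proteases that act on SNAI, TWIST or ZEB proteins had 16 of 17 members measured, beside 34.6% of all listed genes. Their median was 53.7 CPM. The kinase genes CSNK2A1 and CSNK1A1 stood at 239 ± 16.7 and 139.5 ± 7.22 CPM. The ligase genes SIAH1 and FBXO11 stood at 120.3 ± 15.7 and 100.4 ± 56.4 CPM, and FBXO11 ranged over 160.0, 93.3 and 47.8 CPM in replicates 1 to 3. FBXO45 was the exception, with 7, 16 and 23 reads. Levels of RNA do not show the activity of these enzymes or the stability of their substrates.

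Of the 18 genes for signals that induce these factors, 17 were measured, beside 34.6% of all listed genes. Their median was 67.9 CPM. The Notch receptor gene NOTCH2 had 1595, 1341 and 1400.3 CPM, the beta-catenin gene CTNNB1 stood at 497 ± 19.0, the coactivator gene YAP1 at 403 ± 196 and the hypoxia factor gene HIF1A at 308 ± 96.7 CPM. YAP1 was highest in replicate 1, at 611 CPM, and lowest in replicate 3, at 221 CPM. HMGA2, which encodes a chromatin protein that activates SNAI1 and TWIST1, was the exception, with 7, 13 and 16 reads.

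Epithelial genes were mostly at or near 0 reads in the same libraries. Epithelial transcription factors that oppose SNAI and ZEB proteins had 0 of 12 members measured, beside 34.6% of all listed genes. GRHL2 and OVOL2, named here for their known repression of ZEB1, had 0 reads. The others with any read were GRHL3 (6, 0 and 0), GRHL1 (1, 2 and 0) and OVOL1 (0, 0 and 3). Of the epithelial target genes 3 of 23 were measured, beside 34.6% of all listed genes, with a median of 0.188 CPM. CDH1 had 5, 4 and 6 reads, and the epithelial adhesion gene EPCAM and the claudin genes CLDN3, CLDN4 and CLDN7 had 0.

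The 3 measured target genes were MARVELD2, a component of tricellular tight junctions, at 17.1 ± 2.65 CPM, the laminin chain gene LAMA5 at 9.61 ± 2.87 CPM and the cadherin gene CDH3 at 4.85 ± 1.43 CPM. The highest of the rest was KRT19, with 1, 9 and 7 reads. All 25 mesenchymal genes with a row were measured, beside 34.6% of all listed genes, with a median of 999.5 CPM. They were led by the collagen genes COL3A1, COL1A2 and COL1A1 and the matrix gene SPARC, at 17923 CPM or more. Several of them, such as these collagen genes, VIM and PDGFRA, are also fibroblast markers, so part of this count repeats that of the markers. No cells with the factors altered were measured, so these lists show only what was present beside the factors.

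**Figure D4:**
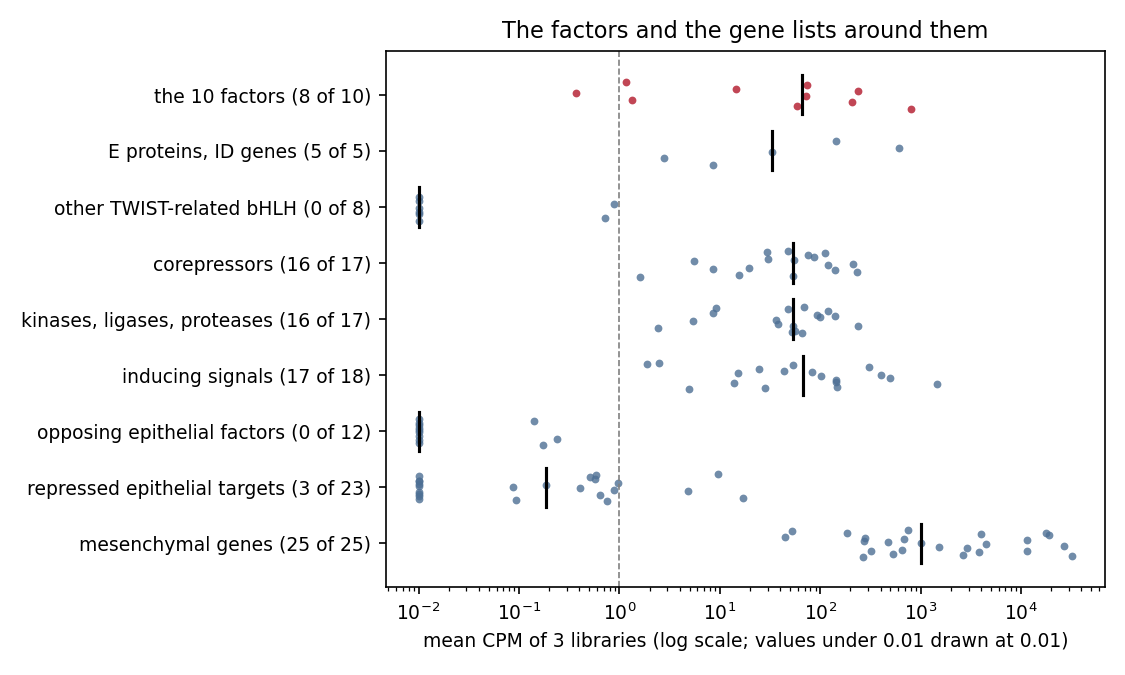
Mean CPM of 3 libraries on a log scale for the 10 factors (red) and for the genes of 8 lists around them (blue), 1 point per gene, with a black bar at each median, a dashed line at 1 CPM and, in brackets, how many genes with a row were measured. The factors' median is 65.2 CPM, the opposing epithelial factors lie below 1 CPM, and all 25 mesenchymal genes lie above it.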

How the data were processed

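RNA of 3 libraries was amplified by a single-primer method and sequenced as single reads of 100 bases, per the labels' protocols. The deposited values are raw read counts per gene symbol, made with HTSeq 0.6.1 after TopHat2 2.0.10 and bcl2fastq 2.18.0.12, per the submitters' processing notes. Genome build, annotation, counting mode and strandedness were not given in the sources used here. Its 5 summary rows entered no library size, and reads with several alignments (7.52 to 7.99% of counted reads) are in no gene's count.

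CPM used TMM factors of 0.978, 1.02 and 0.998 (edgeR 4.0.16 in R 4.3.3). Log2 ratios of 2 genes added 0.5 read to each count. The interval of a ratio over all libraries pools their reads and leaves out the spread between them. Intervals are exact Clopper-Pearson intervals at 95% of a gene's share of the scaled library, and with PCR reads they cover counting error only, as does the limit of 3 reads that a count of 0 allows (0.356, 0.605 and 0.422 CPM). That limit presumes that the gene could receive reads. Variability between libraries was tested over all 10434 genes that had at least 10 counts in each library, by a negative binomial Pearson statistic with edgeR's trended dispersion against chi-square with 2 degrees of freedom, with Benjamini-Hochberg adjustment; it was tested on simulated data. DESeq2 1.42.0 gave the alternative size factors and trend.

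Replicates were not repeats of 1 library, since the chi-square of counts over its degrees of freedom was 11.6 to 42.8 between pairs. Named genes were all members, the 4 highest of each list and, where 6 or fewer, those above or below 1 CPM. Fibroblast markers are given by their sums. So are markers of other cell types below 1 CPM with a read, except FCER1G, PAX3, CSF1R and MYF5. Others named are defining markers or genes named for their role. The 18 lists hold 230 genes, of which 209 had a row. The members and lists were chosen with earlier results of these data known. Gene overlaps came from the RefSeq table of ARS-UCD2.0, which matched 10 of 10 members, from its gene starts and ends, and no coordinates are printed because the build of the counts is not known.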

Additional observations from a re-analysis of the deposited data

How the results depend on the processing

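Of the alternatives run, 97 of 98 values kept their direction and moved by less than the spread between libraries or, for counts, by at most 1.5 times. The exception was the count of members whose library intervals did not overlap, which was 6 of 7 with all libraries and 2 to 5 with 1 library left out. With 99% intervals that count was 4, without TWIST1 and ZEB1. With plain library sizes it was again 6, but with ZEB2 in place of TWIST1. The number of measured members was 8 under every scaling, at 0.5 CPM and with each library left out, and 7 had 10 or more counts in every library. Levels moved by at most 1.06% under DESeq2 size factors or plain library sizes. With 1 library left out, SNAI1 ranged over 0.522 to 1.90 CPM and TCF21 over 0.0595 to 0.545 CPM, and no other member moved by more than 1.16-fold. The variability test called 0 members under every setting run, and 0 to 6 genes of all tested. The planned length correction could not be made because no transcript lengths were available, so ratios are of reads. No paired analysis was possible because the series has 1 group. Depth limits SNAI1, TWIST2 and TCF21, with 27, 24 and 8 reads over all libraries.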
